A study of Drosophila melanogaster with 18 samples.

Results

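Transcript levels of 9 genes of the nuage and the germ plasm were followed in fly ovaries: vas, spn-E, krimp, tej, qin, mael, squ, tud and vls. They were taken as every probe set of the deposited array table that the platform's annotation, updated to current symbols, named for a single one of these genes. This gave 9 of the 11953 genes that have a probe set of their own, with 10 probe sets, 2 of them for qin, among 18769 probe sets left after the control probe sets were set aside. RNA was measured on Affymetrix Drosophila Genome 2.0 arrays, whose short oligonucleotide probes are combined into probe sets, and values are RMA log2 intensities. One unit on this scale is therefore a doubling of normalized signal.

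The 18 arrays held ovary RNA of Drosophila melanogaster females in 6 groups of 3, which the design text calls biologically independent. RpII2154/FM7;Marcal1del/del and RpII2154/FM7 were sampled at 20 °C, and Marcal1del/del and yw at 25 °C and at 20 °C. The yw stock served as the control. Marcal1del/del carries a deletion on both copies of Marcal1, the fly counterpart of the DNA-annealing helicase SMARCAL1. RpII2154 is an allele of RpII215, which encodes the largest subunit of RNA polymerase II, and is kept here over the X-chromosome balancer FM7. For replicates 2 and 3 of RpII2154/FM7 the genotype entry reads FM8 and FM9 where the titles read FM7, and the titles were followed. Fly age, the number of ovaries in a sample and whether the stocks share a genetic background are not given in the sources used here. Differences between genotypes are therefore differences between stocks.

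Nuage is the dense material around nurse cell nuclei where Piwi-family proteins and their piRNAs (small RNAs that silence transposons) amplify each other by cutting complementary transcripts. Many of its proteins carry Tudor domains, which bind methylated arginines on Piwi-family proteins such as Aubergine. Of the genes followed here, spn-E, krimp, tej, qin and tud encode Tudor-domain proteins, while vas, mael, squ and vls encode partners in the same structures. Several of the same proteins also take part in the germ plasm at the posterior pole of the oocyte, which specifies the germ cells of the embryo. In the ovary these genes are transcribed mainly in the germline, so a bulk ovary signal mixes their level per cell with the share of germline in the sample.

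All 9 genes had a mean signal above every array median, and one of them, vls, was lower in RpII2154/FM7;Marcal1del/del than in each stock that carries 1 of its mutations at the same temperature. Across the 7 comparisons between 2 groups, the 10 probe sets gave 70 tests, of which 2 passed an adjusted p of 0.05, both for vls. In the other 68 no difference exceeded 1.35-fold, and the 95% intervals of the fit ran from -0.72 to 0.78 on the log2 scale. A p that misses the threshold does not show equal levels.

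**Figure D1:**
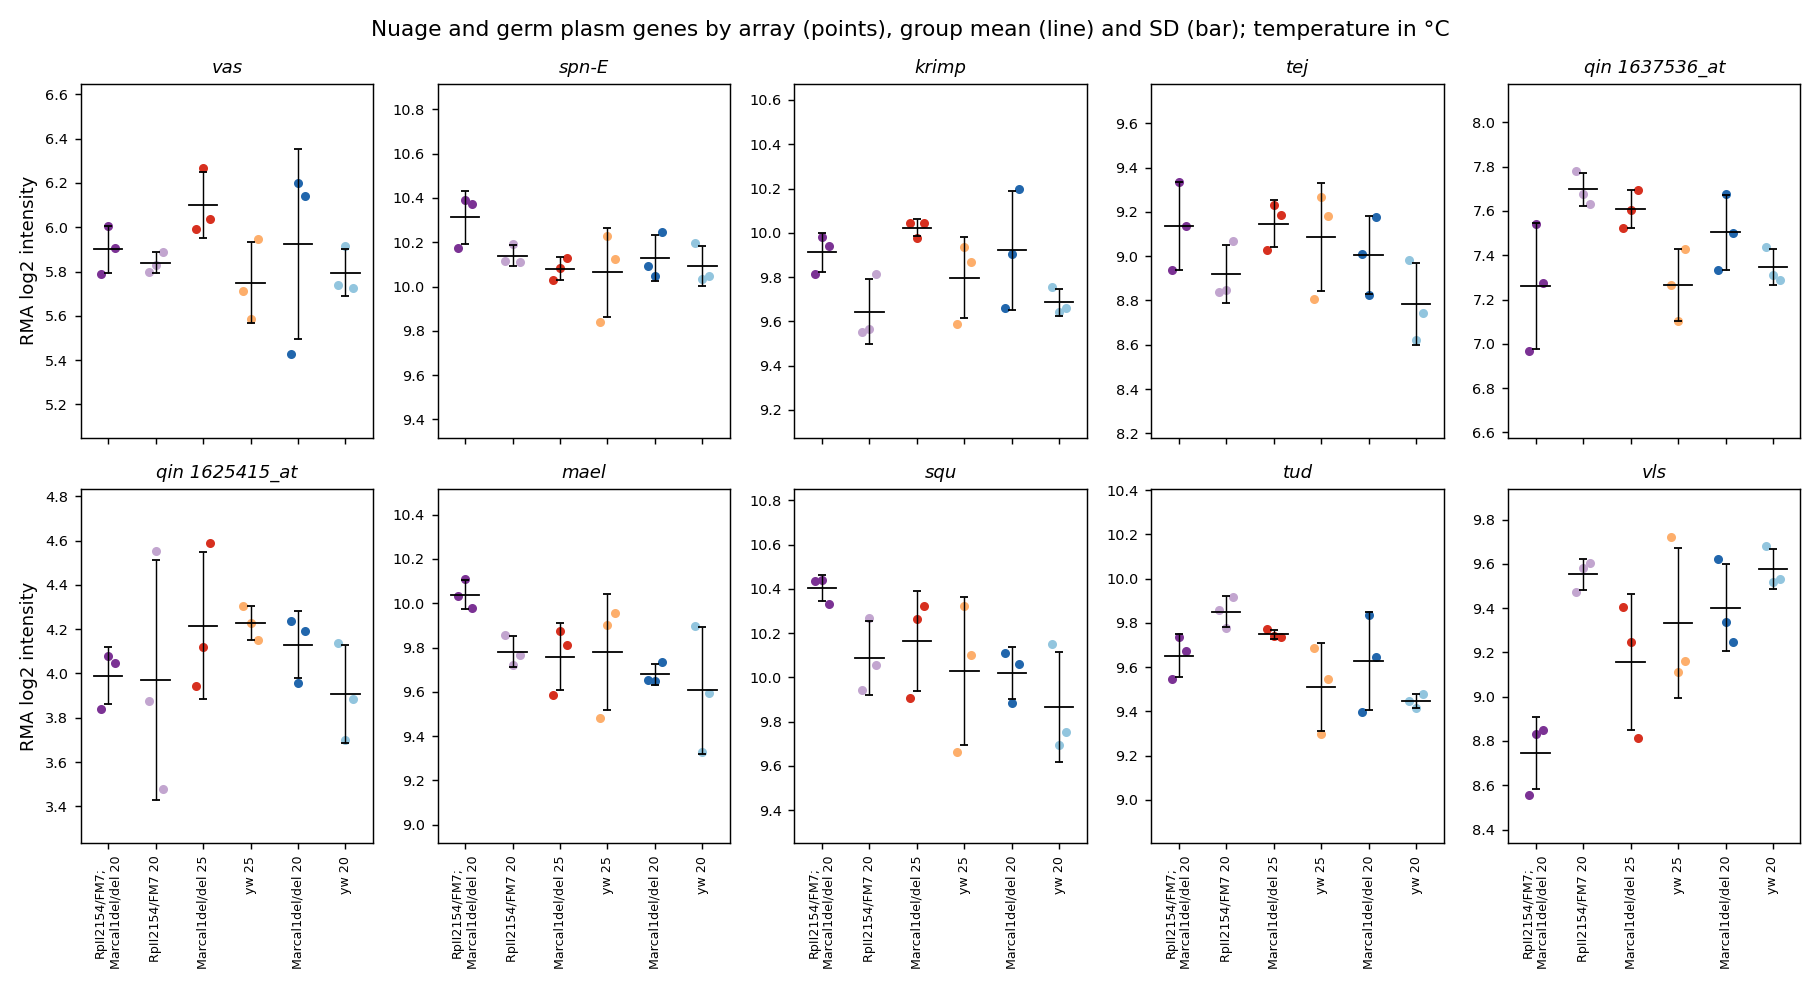
RMA log2 intensity of the 10 probe sets (y axis, each panel spanning the same height) in the 6 groups (x axis, with the temperature in °C). Points are single arrays, lines are means and bars are SDs (n = 3). The 3 RpII2154/FM7;Marcal1del/del arrays of vls sit between 8.56 and 8.85, and only 1 of the other 15 arrays, at 8.81, lies in that range.

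Markers of the ovary were present together with those of other tissues. Averages above every array median (4.07 to 4.20) were found for all 14 measured nurse cell and maternal mRNA genes, all 15 eggshell genes, 15 of 17 early germline genes, 7 of 11 follicle cell genes and the 9 genes described here (qin by its brighter probe set). The same held for 11 of 17 muscle, 8 of 15 hemocyte and 7 of 10 fat body genes. Averages below every array median were found for 2 early germline, 2 follicle cell, 6 muscle, 6 hemocyte and 2 fat body genes. No detection calls were used, and signal on this scale includes background. Some arrays stood apart. The mean of the eggshell genes, which late follicle cells transcribe, was 8.22 on RpII2154/FM7 replicate 3 against 12.68 and 12.80 on replicates 1 and 2, and 9.56 on yw replicate 1 at 20 °C against 12.23 and 12.25 on replicates 2 and 3. The muscle genes had a mean of 7.68 on the first of the yw arrays at 25 °C (replicate 1), and of 5.49 and 5.71 on the other 2. These 3 arrays are left out together where values are given without the arrays that stood apart. Marcal1del/del replicate 1 at 25 °C, with muscle genes at 7.09 against 6.08 and 5.23 on replicates 2 and 3, is not among them. Leaving it out alone gave 0 of the 10 probe sets called in each of the 3 comparisons that use it. Marcal1 itself was lower in every stock labelled Marcal1del/del, though above the array medians there, at 5.87 against 7.94 in yw at 20 °C, 6.03 against 8.11 in yw at 25 °C, and 5.84 in RpII2154/FM7;Marcal1del/del against a mean of 7.79 in RpII2154/FM7. The array names form 2 series, one holding all yw and Marcal1del/del arrays and the other all arrays with RpII2154/FM7. For comparisons across them, series and genotype cannot be told apart.

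The gene vls encodes Valois, a WD-repeat partner of the arginine methyltransferase Capsuleen that is needed for pole plasm assembly. Its level was 8.56, 8.83 and 8.85 in RpII2154/FM7;Marcal1del/del, against 9.47, 9.58 and 9.60 in RpII2154/FM7. In Marcal1del/del at 20 °C it was 9.62, 9.34 and 9.25. All 3 RpII2154/FM7;Marcal1del/del arrays thus lay below all arrays of both other groups. Relative to RpII2154/FM7, vls fell by 0.81 ± 0.17 (SE) on the log2 scale, a 1.75-fold difference (limma, adjusted p = 0.0209). Relative to Marcal1del/del it fell by 0.66 ± 0.17, or 1.58-fold (limma, adjusted p = 0.0402). These tests share the RpII2154/FM7;Marcal1del/del arrays and are not independent of each other. In the first, 0.943% of all probe sets were called lower, and vls had rank 180 by p-value. In the second, which also crosses the array series, 1.68% were called lower and vls had rank 601. In bulk samples fewer cells of a type and less RNA per cell cannot be told apart. Against RpII2154/FM7 the median log2 change was 0.07 for the 14 nurse cell and maternal mRNAs and 0.12 for 28 other piRNA pathway genes. Of the 10 probe sets 7 were higher, among them mael and squ at 0.26 and 0.32. The 3 lower ones were vls, tud at -0.20 and qin 1637536_at at -0.44. Whether the share of germline differed was not tested.

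Both vls calls were sensitive to single arrays. Leaving out each of the 6 arrays compared in turn kept the difference from RpII2154/FM7 between -0.86 and -0.71, with adjusted p from 0.042 to 0.0952, and it passed in 2 of the 6, those without RpII2154/FM7;Marcal1del/del replicate 2 or 3. The difference from Marcal1del/del stayed between -0.73 and -0.55, with adjusted p from 0.0494 to 0.135, and passed in 1 of the 6, that without Marcal1del/del replicate 3. With each array centred on its median it was -0.60 (adjusted p = 0.0571). Without the 3 arrays that stood apart, both passed (-0.78, adjusted p = 0.0181, and -0.66, adjusted p = 0.0165).

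The other vls groups overlapped their neighbours. The level averaged 9.58 ± 0.09 (SD, n = 3) in yw at 20 °C, 9.55 ± 0.07 in RpII2154/FM7, 9.40 ± 0.20 in Marcal1del/del at 20 °C, 9.33 ± 0.34 in yw at 25 °C, 9.16 ± 0.31 in Marcal1del/del at 25 °C and 8.75 ± 0.16 in RpII2154/FM7;Marcal1del/del. In this order the ranges of every 2 adjacent groups overlapped, the last pair through the single array of Marcal1del/del at 25 °C at 8.81. Marcal1del/del minus yw was -0.18 ± 0.17 (SE) at 20 °C and -0.18 ± 0.17 at 25 °C, and 25 minus 20 °C was -0.25 ± 0.17 in both Marcal1del/del and yw. None of these 4 passed. RpII2154/FM7 differed from yw by -0.02, with a 95% interval from -0.38 to 0.33. Whether the Marcal1del/del difference depended on RpII2154/FM7 was tested directly, and the difference of differences was -0.63 ± 0.24, with an unadjusted p of 0.0174 and an adjusted p of 0.314 by limma, so a dependence was not shown.

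Measures of RNA integrity and tissue content also differed between these groups, and their part in the vls difference was not tested. The 3′ minus 5′ difference of the actin control probe sets, which grows as RNA degrades, was 1.48 to 2.04 in RpII2154/FM7;Marcal1del/del, against 1.26 to 1.56 in RpII2154/FM7 and 0.95 to 1.23 in Marcal1del/del at 20 °C. For GAPDH it was 1.25 to 1.76 in RpII2154/FM7;Marcal1del/del, against 1.32 to 1.59 in RpII2154/FM7 and 1.20 to 1.34 in Marcal1del/del. Actin thus overlapped with RpII2154/FM7 alone, and GAPDH with both.

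The 15 eggshell genes averaged 10.07 to 11.16 in RpII2154/FM7;Marcal1del/del, against 8.22 to 12.80 in RpII2154/FM7 and 12.07 to 12.95 in Marcal1del/del. The 17 muscle genes averaged 5.62 to 6.47 in RpII2154/FM7;Marcal1del/del, against 6.74 to 7.29 in RpII2154/FM7 and 5.59 to 5.91 in Marcal1del/del. The eggshell means were therefore apart from Marcal1del/del, and the muscle means from RpII2154/FM7. The 15 hemocyte genes had a median log2 change of -0.42 against RpII2154/FM7 and -0.02 against Marcal1del/del, and the 11 follicle cell genes of -0.68 and -0.18. Of the follicle cell genes 0 passed in either comparison by limma, where 1.88% and 3.85% of all probe sets did. At an unadjusted p under 0.05 there were 5 and 3 of the 11, against 18.6% and 20% of all. The 10 fat body genes had a median of -0.27 in both. Against RpII2154/FM7 1 hemocyte gene (PPO1) and 2 fat body genes (Nepl4 and Treh) passed, all lower. Against Marcal1del/del 2 eggshell genes (Cp36 and Cp38) and 2 hemocyte genes (srp and vkg) passed, all lower. No muscle gene passed in either. Against RpII2154/FM7, however, 10 of the 17 muscle genes had an unadjusted p under 0.05, where 18.6% of all did. Their median log2 change was -1.31, with only 1 of the 17 higher. Against Marcal1del/del 0 of the 17 reached that p, and the median was 0.15.

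Among germline lists, the 14 nurse cell and maternal mRNAs averaged 10.38 to 10.50 in RpII2154/FM7;Marcal1del/del, against 10.31 to 10.41 in RpII2154/FM7 and 10.42 to 10.61 in Marcal1del/del. The 17 early germline genes averaged 8.61 to 8.79 in RpII2154/FM7;Marcal1del/del, against 8.55 to 8.82 in RpII2154/FM7 and 8.22 to 8.36 in Marcal1del/del, the last wholly apart. The last comparison crosses the 2 array series. In it the median log2 change of the 17 was 0.18, with 12 higher, while that of tut was 4.77. Against Marcal1del/del, where 3.85% of all probe sets passed in either direction, 3 of the 17 passed higher. These were tut (4.77 ± 0.44 SE), bam, a differentiation factor of early germline cells (0.92 ± 0.23), and mtrm, a meiotic regulator (0.50 ± 0.13). c(2)M, a gene of the synaptonemal complex, was lower (-0.56 ± 0.13). Against RpII2154/FM7, where 1.88% of all passed, 2 of the 17 were higher, bam (1.08 ± 0.23) and mtrm (0.62 ± 0.13), and 1 lower, bgcn (-0.61 ± 0.15). The bgcn means, 3.72 in RpII2154/FM7;Marcal1del/del and 4.34 in RpII2154/FM7, lay near the array medians (4.07 to 4.20). Signal there includes background, so this call carries little information on changes. The gene csul, which encodes Capsuleen, the enzyme that acts with Valois, averaged 9.30 in RpII2154/FM7;Marcal1del/del and 9.21 in RpII2154/FM7 (difference 0.09, 95% interval -0.13 to 0.31).

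**Figure D2:**
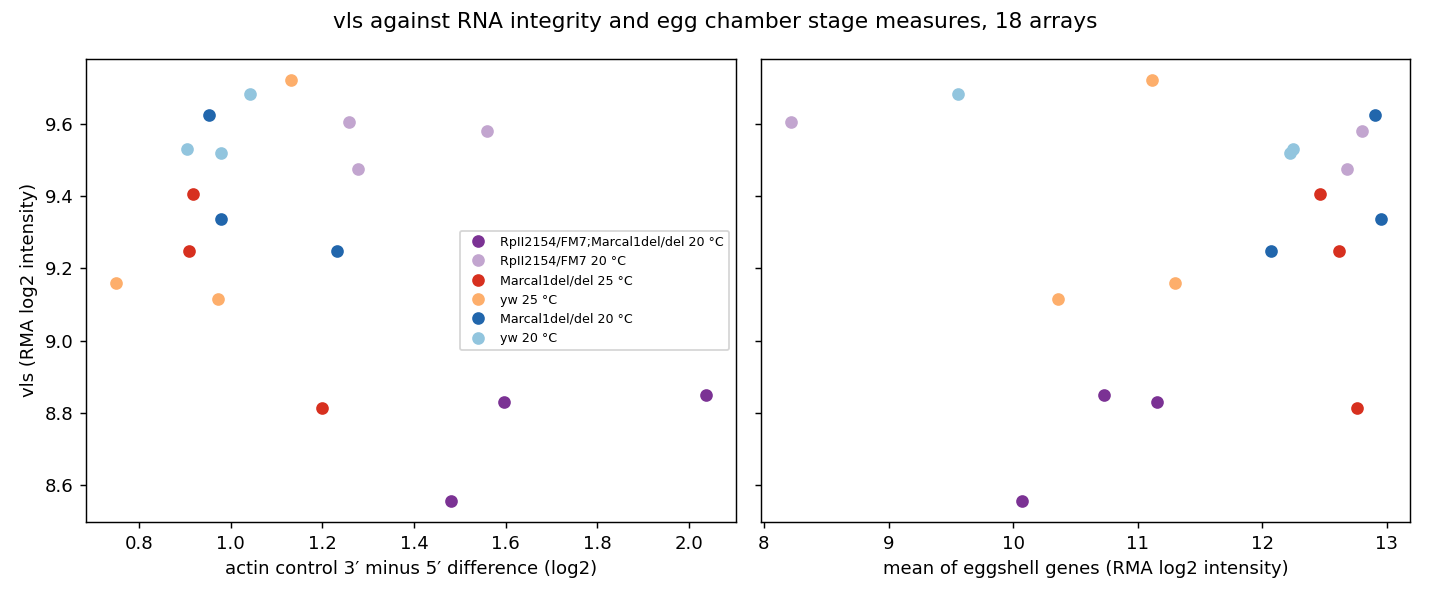
vls level (y axis, RMA log2 intensity) on each of the 18 arrays against the actin control 3′ minus 5′ difference (left, log2) and the mean of 15 eggshell genes (right, RMA log2 intensity), coloured by group. The RpII2154/FM7;Marcal1del/del arrays have vls at 8.56 to 8.85, actin differences of 1.48 to 2.04 and eggshell means of 10.07 to 11.16.

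The gene tud encodes Tudor, the multi-domain protein for which Tudor domains are named. Its level was 9.86, 9.78 and 9.91 in RpII2154/FM7, against 9.45, 9.42 and 9.48 in yw at 20 °C. The groups were fully apart, by 0.40 ± 0.11 (SE) on the log2 scale, which is 1.32-fold (limma, adjusted p = 0.0708). That value lay close to the threshold: the adjusted p was 0.0426 with each array centred on its median and 0.0432 with dim probe sets left out. It ranged up to 0.213 over all alternatives. This comparison crosses the 2 array series, where series and genotype cannot be told apart. The actin control 3′ minus 5′ difference was 1.26 to 1.56 in RpII2154/FM7 and 0.90 to 1.04 in yw at 20 °C. Its part in the tud difference was not tested. RpII2154/FM7;Marcal1del/del stood at 9.54, 9.74 and 9.67, against 9.40, 9.84 and 9.65 in Marcal1del/del at 20 °C, with a difference of 0.02 and a 95% interval from -0.22 to 0.26. The tud levels of RpII2154/FM7;Marcal1del/del lay below all 3 of RpII2154/FM7, by -0.20 ± 0.11 (adjusted p = 0.361 by limma). At 25 °C the 3 Marcal1del/del arrays, at 9.77, 9.74 and 9.73, lay above the yw arrays, at 9.69, 9.30 and 9.54 (0.24 ± 0.11, adjusted p = 0.592 by limma).

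Among the nuage genes, vas and spn-E encode RNA helicases. Vasa is a DEAD-box helicase of both nuage and germ plasm, and Spindle-E pairs a helicase domain with a Tudor domain. The vas level was 5.99, 6.27 and 6.04 in Marcal1del/del at 25 °C, against 5.71, 5.59 and 5.95 in yw at 25 °C. These groups did not overlap, and differed by 0.35 ± 0.16 (SE; adjusted p = 0.578 by limma). At 20 °C the vas arrays of Marcal1del/del, at 5.43, 6.20 and 6.14, surrounded those of yw, at 5.74, 5.92 and 5.73. The vas gene overlaps solo in the RefSeq annotation, and their signals may not be separable. The spn-E probe set had the narrowest spread of the 10, from 9.84 to 10.39 over all 18 arrays. Its group means lay between 10.06 in yw at 25 °C and 10.31 in RpII2154/FM7;Marcal1del/del, and its largest difference in the 7 comparisons was 0.19 ± 0.10, between RpII2154/FM7;Marcal1del/del and Marcal1del/del at 20 °C (adjusted p = 0.336 by limma).

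Krimper, Tejas and Qin are Tudor-domain proteins of the nuage, needed to bring Piwi-family proteins and their substrates together there. The krimp level was 9.81, 9.98 and 9.94 in RpII2154/FM7;Marcal1del/del, against 9.55, 9.57 and 9.81 in RpII2154/FM7, and the groups met without overlapping (0.27 ± 0.13 SE, adjusted p = 0.268 by limma). It was 10.04, 9.98 and 10.04 in Marcal1del/del at 25 °C, above 9.59, 9.93 and 9.87 in yw (0.22 ± 0.13, adjusted p = 0.722). At 20 °C the Marcal1del/del arrays, at 9.66, 9.90 and 10.20, overlapped those of yw, at 9.76, 9.64 and 9.66 (0.23 ± 0.13, adjusted p = 0.764). In all 3 comparisons krimp averaged higher with Marcal1del/del by 0.22 to 0.27, and none passed. For tej the largest difference was that between 25 and 20 °C in yw, at 8.81, 9.27 and 9.18 against 8.99, 8.62 and 8.75. It amounted to 0.30 ± 0.14 with overlapping groups (adjusted p = 0.671 by limma).

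The qin gene was measured by 2 probe sets, which did not follow each other (r = 0.12 over the 18 arrays, as a description). The probe set 1625415_at lay near the array medians, with group means from 3.91 to 4.23, and carries little information on changes. On the probe set 1637536_at, qin was 6.97, 7.54 and 7.27 in RpII2154/FM7;Marcal1del/del, against 7.78, 7.68 and 7.63 in RpII2154/FM7. The groups were apart by -0.44 ± 0.13 (SE; adjusted p = 0.101 by limma). That difference passed only without RpII2154/FM7;Marcal1del/del replicate 2 (-0.58, adjusted p = 0.0437). RpII2154/FM7 in turn lay above yw at 20 °C, which stood at 7.44, 7.31 and 7.29, by 0.35 ± 0.13 (adjusted p = 0.172 by limma). That comparison crosses the array series. Marcal1del/del minus yw had the opposite sign to the difference in the RpII2154/FM7 background, at 0.16 ± 0.13 at 20 °C, and was 0.34 ± 0.13 at 25 °C, where the groups were apart. The difference of differences at 20 °C was -0.59 ± 0.19, with an unadjusted p of 0.00573 and an adjusted p of 0.194 by limma.

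The remaining nuage genes are mael, whose product Maelstrom has an HMG box and acts in transposon silencing, and squ, whose product Squash binds Aubergine. Both had their highest group mean in RpII2154/FM7;Marcal1del/del. The mael level was 10.03, 10.11 and 9.98 there, against 9.86, 9.72 and 9.77 in RpII2154/FM7 and 9.65, 9.65 and 9.73 in Marcal1del/del at 20 °C. The squ level was 10.44, 10.44 and 10.33 there, against 9.94, 10.27 and 10.05 in RpII2154/FM7 and 10.11, 9.89 and 10.06 in Marcal1del/del. For both genes the RpII2154/FM7;Marcal1del/del arrays lay above all arrays of the other 2 groups. Relative to Marcal1del/del the differences were 0.36 ± 0.14 (SE) for mael and 0.38 ± 0.16 for squ (adjusted p = 0.162 and 0.202 by limma). That comparison crosses the array series. Relative to RpII2154/FM7 the differences were 0.26 ± 0.14 and 0.32 ± 0.16 (adjusted p = 0.341 and 0.314 by limma). Without the 3 arrays that stood apart, mael passed against Marcal1del/del with the same difference (0.36, adjusted p = 0.0496). The name of the mael probe set, 1639178_s_at, marks probes that can match several transcripts, though the annotation names mael alone.

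**Figure D3:**
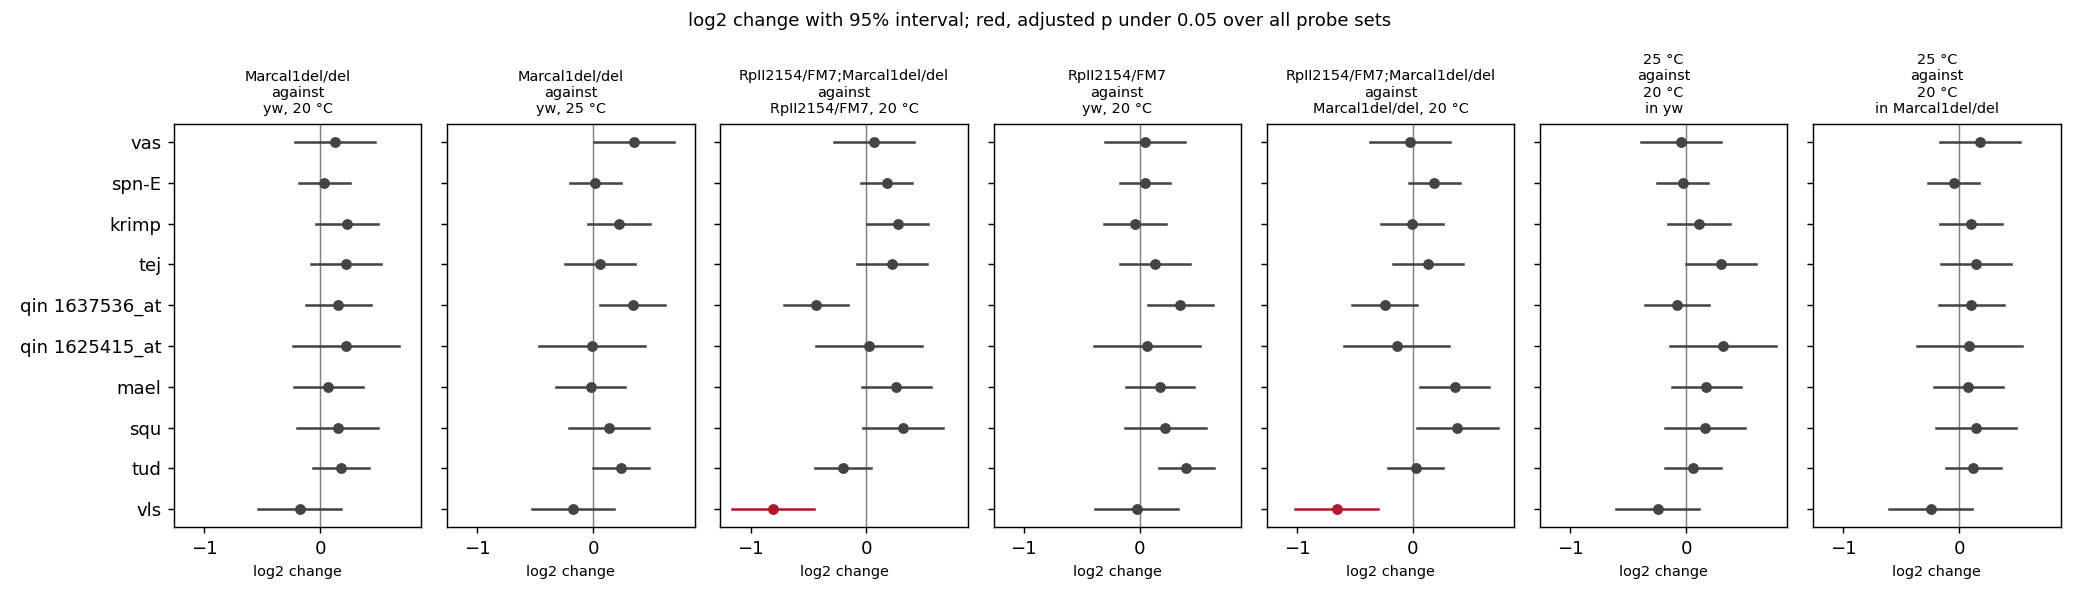
log2 change of the 10 probe sets (rows) in the 7 comparisons between 2 groups (panels), with 95% intervals of the limma fit (x axis, group named first minus group named second). Red marks an adjusted p under 0.05 over all 18769 probe sets, which only vls reached, at -0.81 against RpII2154/FM7 and -0.66 against Marcal1del/del.

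Taken by comparison, Marcal1del/del against yw had 0 of 10 probe sets called at 20 °C, where 1.18% of all probe sets were called, and 0 at an unadjusted p under 0.05, which 7.65% of all reached. The median log2 change of the 10 was 0.15, against 0.01 over all probe sets. At 25 °C it again had 0 called, against 1.23% of all, with 2 at an unadjusted p under 0.05, where 8.5% of all lay, and a median of 0.10 against -0.01. There 4 probe sets (vas, krimp, tud and qin 1637536_at) lay in Marcal1del/del wholly above yw, where 7.98% of all probe sets did so. RpII2154/FM7;Marcal1del/del against RpII2154/FM7 had 1 of 10 called, vls, against 1.88% of all in either direction, with 3 at an unadjusted p under 0.05, where 18.6% of all lay, and a median of 0.12 against 0.02. Its groups did not overlap for 3 probe sets higher (krimp, mael and squ) and 3 lower (vls, tud and qin 1637536_at), against 13.5% and 8.92% of all. The median size of the changes, without sign, was 0.24 for the 10 and 0.18 for all probe sets with a mean above the median of the array medians.

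RpII2154/FM7 against yw had 0 of 10 called, against 2.76% of all, with 2 at an unadjusted p under 0.05, where 17.2% of all lay. These 2, tud and qin 1637536_at, were also the ones whose groups were apart, both higher, as 9.61% of all were. The median of the 10 was 0.10 against -0.00. RpII2154/FM7;Marcal1del/del against Marcal1del/del had 1 called, vls, against 3.85% of all, with 3 at an unadjusted p under 0.05, where 20% lay, and a median of 0.01 against 0.02. Its groups did not overlap for 2 probe sets higher (mael and squ) and 1 lower (vls), against 14.2% and 11% of all. The comparisons of 25 with 20 °C had 0 of 10 called by limma in either stock, against 0.202% of all in Marcal1del/del and 0.256% in yw. None of the 10 had an unadjusted p under 0.05, as did 4.25% of all in Marcal1del/del and 7.43% in yw. Medians of the 10 were 0.10 in Marcal1del/del and 0.09 in yw, against 0.00 and 0.02 over all. The groups were apart for 1 probe set, the dimmer one of qin, higher at 25 °C in yw, as were 6.09% of all. Neither difference of differences called any of the 10 by limma, against 0.97% of all for Marcal1del/del with and without RpII2154/FM7 and 0.0107% for temperature by Marcal1del/del. At an unadjusted p under 0.05 the first had 3 of the 10, against 10.7% of all, and the second 0, against 1.57%. The 10 probe sets varied about as much as others of measurable signal. Their median range of group means was 0.39, against 0.39 over the 9348 probe sets with a mean above the median of the array medians, and the median SD within groups was 0.18 against 0.17.

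Pearson correlations between the 45 pairs of probe sets over the 18 arrays ranged from -0.71 to 0.86 with a median of 0.10. They are given as a description, because arrays of a group share a stock and some arrays differ in egg chamber content. After the values were seen, spn-E, tej, mael and squ stood out as one set, with r from 0.61 to 0.86 for each pair, highest between mael and squ. In this set, deviations from the group means also went together, with r from 0.69 to 0.85. A second set held vas, tud and qin 1637536_at, with r from 0.52 to 0.74. The krimp probe set correlated with tej (0.74) and vas (0.61). Opposite to the first set ran vls, with r of -0.71 to squ, -0.67 to mael, -0.59 to spn-E and -0.54 to tej. For deviations from the group means these were weaker, at -0.46, -0.42, -0.42 and -0.24. The most similar patterns to vls among 7416 other genes with measurable signal were those of Fib, which encodes the nucleolar methyltransferase fibrillarin (r = 0.87), CG4666 (0.87) and CG13315 (0.82).

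**Figure D4:**
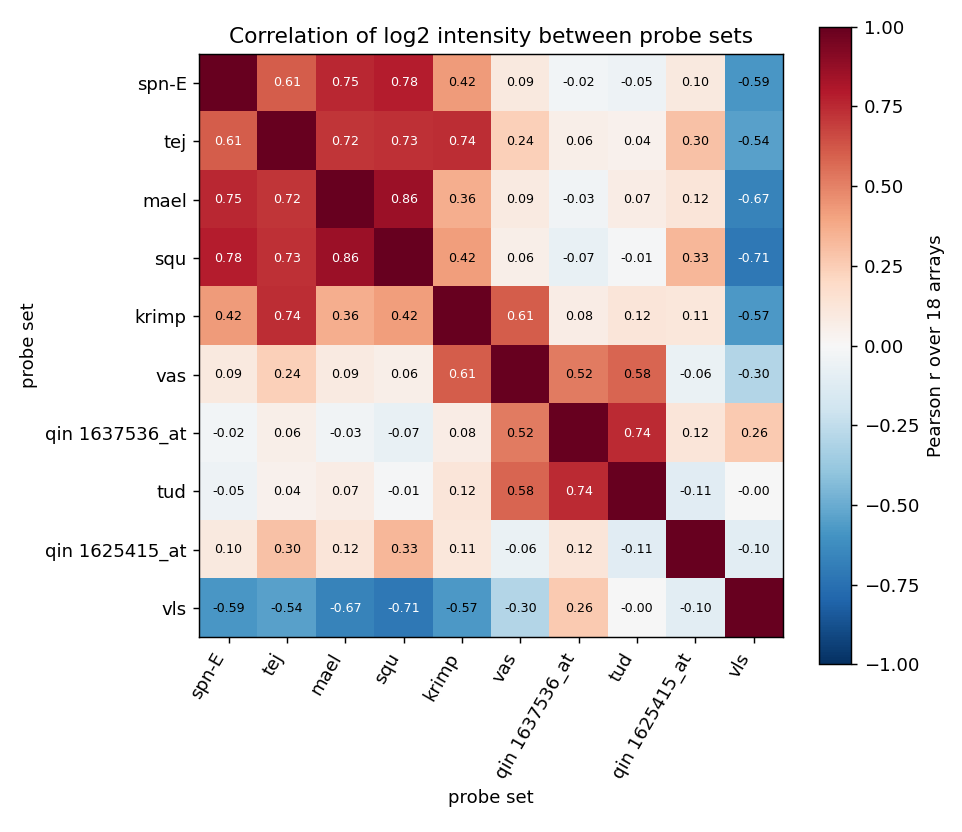
Pearson correlation of RMA log2 intensity between each pair of the 10 probe sets over the 18 arrays (rows and columns, colour and number). The block of spn-E, tej, mael and squ holds r from 0.61 to 0.86, the block of vas, qin 1637536_at and tud from 0.52 to 0.74, and vls is negative to the first block (-0.71 to -0.54).

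Further genes of the piRNA pathway and the germ plasm were read from 2 lists, with the probe set of highest mean for each gene. Of 28 measured piRNA pathway genes, 0 passed for Marcal1del/del against yw at 20 °C by limma (2 at an unadjusted p under 0.05), with a median log2 change of 0.03, and 1 passed at 25 °C. Of all probe sets 1.18% and 1.23% passed there. That gene was Boot, a factor for export of piRNA cluster transcripts, higher by 0.48 ± 0.10 (SE) on the log2 scale. It no longer passed without the 3 arrays that stood apart (adjusted p = 0.0899 by limma). Against RpII2154/FM7, RpII2154/FM7;Marcal1del/del had 1 higher and 2 lower, where 1.88% of all passed. Hen1, which encodes the methyltransferase of piRNA 3′ ends, rose by 1.01 ± 0.21. The gene nxf2, a nuclear export family member that acts in transposon silencing, fell by 0.63 ± 0.13, and armi, a helicase gene of piRNA biogenesis, fell by 0.41 ± 0.09. Without those 3 arrays armi no longer passed (adjusted p = 0.0779 by limma), and 1 of the 28 was lower.

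Against Marcal1del/del at 20 °C, RpII2154/FM7;Marcal1del/del had 3 of the 28 higher and 1 lower, where 3.85% of all passed. With the 3 arrays left out, 5 were higher and 1 lower. The Yb-family Tudor gene BoYb rose by 1.02 ± 0.18 (SE), moon, whose product starts transcription of piRNA clusters, by 1.12 ± 0.30, and aub, which encodes Aubergine, by 0.44 ± 0.08. The nxf2 level fell by 0.91 ± 0.13. RpII2154/FM7 had 3 of the 28 higher than yw and 0 lower, where 2.76% of all passed: aub by 0.74 ± 0.08, armi by 0.46 ± 0.09 and fs(1)Yb, which acts in the somatic follicle cells, by 1.63 ± 0.31. Without the 3 arrays armi did not pass here either (adjusted p = 0.0601 by limma). At 25 against 20 °C 1 of the 28 passed in each stock (0.202% of all in Marcal1del/del and 0.256% in yw), aub both times, higher by 0.62 ± 0.08 in Marcal1del/del and by 0.55 ± 0.08 in yw. Without the 3 arrays 4 passed higher and 1 lower in yw. The comparisons of a stock with RpII2154/FM7 and one without it cross the 2 array series, where series and genotype cannot be told apart. The median of the 28 lay between -0.00 and 0.15 in the 7 comparisons.

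Of 13 measured germ plasm genes, 1 passed in RpII2154/FM7;Marcal1del/del against Marcal1del/del, where 3.85% of all did: egl, an adaptor for mRNA transport, higher by 0.68 ± 0.11 (SE). In RpII2154/FM7 against yw 2 passed, where 2.76% of all did. The arginine methyltransferase gene Art7 rose by 0.59 ± 0.12, and stau, whose product carries localised mRNAs, fell by 0.69 ± 0.15. None of the 13 passed in the other 5 comparisons by limma, where 0.202% to 1.88% of all did (0 to 2 of the 13 in each had an unadjusted p under 0.05), and their medians lay between -0.03 and 0.09. With those 3 arrays left out, 1 of the 13 was called higher in RpII2154/FM7;Marcal1del/del against RpII2154/FM7. For egl the difference of differences between Marcal1del/del and its control, taken with RpII2154/FM7 minus without it, also passed (0.81 ± 0.16, adjusted p = 0.0199 by limma).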

How the data were processed

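The authors deposited log2 expression values for 18952 probe sets on 18 arrays. Per the submitters' processing notes these are RMA values, a method that corrects background, gives all arrays the same distribution and summarises the probes of a set. A shift common to most genes is therefore invisible. Software version, probe set definitions and genome build are not given in the sources used here.

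Leaving out 183 control probe sets, 18769 were tested without a filter. Names came from the platform annotation, updated with the RefSeq table of Release 6 (1 gene for 13647, several for 402, none for 4720). A gene outside the 9 was represented by its probe set of highest mean. Groups followed the titles. limma (version 3.58.1 in R 4.3.3) was fitted to all 18 arrays with a group term (residual degrees of freedom 12, prior 3.85), 2-sided, with Benjamini-Hochberg adjustment within each of 9 comparisons. The number of arrays limits the precision. Intervals are 95% from the fit and unadjusted.

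The 9 genes, the other lists and the tests were chosen with earlier results of these data known. All probe sets of the 9 genes were named whatever their test, and from each other list at most 4 called genes a comparison, smallest p first. Genes most like vls were the 3 with the highest Pearson correlation. Alternatives were the compared arrays alone, a replicate block, a trended robust variance, 2 other normalizations, a filter on dim probe sets, leaving out the 3 arrays that stood apart, and leaving out each array.

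Equal replicate numbers gave no sign of paired samples: deviations of same-numbered arrays correlated from -0.33 to 0.47 over 45 pairs, 11 of them over 0.1. With 3 arrays in a group this check cannot exclude pairing. In simulated data for RpII2154/FM7;Marcal1del/del against RpII2154/FM7 on 18769 probe sets, the fit found 53.6% of the changes of 1.5-fold, 83.1% of those of 2-fold and 98.1% of those of 4-fold, with 6 false among 160 calls. For Marcal1del/del against yw at 20 °C these were 65.2%, 90.3% and 96.6%, with 13 false among 180 calls.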

Additional observations from a re-analysis of the deposited data

Results flagged for a closer look

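The germ plasm gene egl was singled out because its Marcal1del/del difference at 20 °C differed with and without RpII2154/FM7 by a direct test. The difference was 0.41 on the log2 scale in RpII2154/FM7;Marcal1del/del against RpII2154/FM7, and -0.40 in Marcal1del/del against yw. The difference of these differences was 0.81 ± 0.16 (SE; adjusted p = 0.0199 by limma). It passed in 13 of 19 alternatives, with values from 0.68 to 0.92 and adjusted p up to 0.0826. The sign of the Marcal1del/del difference was thus opposite in the presence and absence of RpII2154/FM7, though neither difference passed on its own.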

How the results depend on the processing

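The log2 changes of the 10 probe sets were recomputed 1281 times. No called value changed sign, and 104 uncalled ones did, none with a reported size over 0.22. Only the 2 vls calls could be lost, and this happened 10 times. The call against Marcal1del/del passed in 7 of its 13 alternatives and that against RpII2154/FM7 in 9 of 13. Another gene passed in 4 of the 1281. The number of the 10 called was 1 for RpII2154/FM7 against yw with arrays centred on their median (tud) and with dim probe sets left out (tud). For RpII2154/FM7;Marcal1del/del against Marcal1del/del it was 0 with arrays centred (vls at -0.60, adjusted p = 0.0571) and 2 without the 3 arrays that stood apart (vls and mael). Leaving out single arrays gave 0 to 1 for that comparison, 0 to 2 for RpII2154/FM7;Marcal1del/del against RpII2154/FM7, and 0 in the other comparisons. The vls call against Marcal1del/del was lost without any one array of the 6 other than Marcal1del/del replicate 3. The call against RpII2154/FM7 was lost without each RpII2154/FM7 array and without RpII2154/FM7;Marcal1del/del replicate 1. Such fits have fewer samples. For other changes the cause was not tested.

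The calls over all probe sets varied more. With only the compared arrays they numbered 134 for Marcal1del/del against yw at 20 °C (221 reported), 153 for RpII2154/FM7;Marcal1del/del against RpII2154/FM7 (352 reported), 137 for RpII2154/FM7 against yw (518 reported), and, for 25 against 20 °C, 16 in Marcal1del/del (38 reported) and 2 in yw (48 reported). Without the 3 arrays that stood apart, the first 2 of these comparisons had 385 and 743, and 25 against 20 °C had 64 in Marcal1del/del and 788 in yw. In the same fit, Marcal1del/del against yw at 25 °C had 366 (230 reported), RpII2154/FM7;Marcal1del/del against Marcal1del/del 1271 (722 reported), and the differences of differences 349 with RpII2154/FM7 (182 reported) and 13 with temperature (2 reported). Leaving out 1 array gave 127 (without yw replicate 3) to 246 calls for Marcal1del/del against yw at 20 °C and 125 (without Marcal1del/del replicate 2) to 215 at 25 °C. It gave 146 (without RpII2154/FM7 replicate 1) to 362 for RpII2154/FM7;Marcal1del/del against RpII2154/FM7 and 333 (without Marcal1del/del replicate 2) to 582 against Marcal1del/del. For RpII2154/FM7 against yw it gave 199 (without yw replicate 2) to 837 (without yw replicate 1). For 25 against 20 °C it gave 10 (without Marcal1del/del replicate 2 at 25 °C) to 32 in Marcal1del/del, and in yw 23 (without replicate 2 at 20 °C) to 146 (without replicate 1 at 25 °C). For the difference of differences with RpII2154/FM7 it gave 128 to 306 (without RpII2154/FM7 replicate 3). Further arrays moved these counts by over 1.5 times within the same ranges. The replicate block, whose numbers gave no sign of pairs, changed no call of the 10 probe sets (1 called in each of the same 2 comparisons). It gave 166 to 604 calls over all probe sets in the comparisons with RpII2154/FM7.

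The other piRNA pathway and germ plasm genes were run likewise, a choice made after their values were seen. No call reversed. BoYb, egl and nxf2 in RpII2154/FM7;Marcal1del/del against Marcal1del/del and aub in RpII2154/FM7 against yw passed in all 13 alternatives. The calls of moon passed in 5 of 13, of armi in 5 (against RpII2154/FM7) and 7 (against yw), of Boot in 6, of nxf2 against RpII2154/FM7 in 8, of stau in 9, of Hen1 and Art7 in 10, of fs(1)Yb in 11, and of aub in the remaining comparisons in 12.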

Other observations

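A further probe set, annotated to both vas and wwk and therefore not counted among the 10, lay between 2.80 and 3.62 on the 18 arrays, below every array median, and gave no usable second reading of vas. The 3 genes vas, squ and vls share chromosome arm 2L with Marcal1. Among the 10 measured genes nearest to vls in gene order, 5 on each side, 0 were called in RpII2154/FM7;Marcal1del/del against RpII2154/FM7 by limma, with log2 changes from -0.43 to 0.36. Against Marcal1del/del 1 of the 10 was called, the ceramidase gene bwa next to vls, which was higher by 2.00 (adjusted p = 3e-04). These neighbours were looked up after the vls values were seen.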
